A study of Mus musculus with 14 samples.

Results

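The plantaris muscle of mice after 3 days of functional overload was compared with the plantaris at day 0. The comparison took every annotated gene on the 4 arrays whose labels give day 3 or day 0, out of 14 arrays over 7 days in the series. At day 3 there were 2 arrays, one of pooled right plantaris muscles and one of pooled left plantaris muscles, and at day 0 there were likewise 2. All animals were male C57BL/6J mice aged 5 months, and each pool held the muscle of 6 animals, per the labels. Overload was produced by synergist ablation, in which other muscles of the calf are cut away so that the plantaris, a fast muscle, carries their load. RNA was hybridised to Affymetrix Mouse Gene 1.0 ST arrays, which read a gene through probes spread along its transcript. Sham surgery is not among the labelled groups, and surgery, time and overload cannot be told apart. Nothing in the labels says whether a day's right and left muscles are from the same mice, and p-values here reflect how far these pools differ, a spread that may be technical.

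Overload makes the remaining muscle grow within days to weeks. In its first days monocytes enter the tissue and become macrophages, which clear debris and release growth factors. Satellite cells, the stem cells on the surface of muscle fibres, divide, express Myod1 and then Myog, and fuse with the fibres. Fibroblasts lay down new matrix, and the fibres themselves add ribosomes and contractile protein while their metabolic and contractile gene programmes are reset. In whole muscle these cells are read together, so fewer cells of a type and less RNA per cell cannot be told apart.

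Values are log2 of the deposited intensity, and differences are day 3 minus day 0 ± SE from limma, with the 2 pools of each day. Of 19938 genes, 9502 (47.7%) differed between day 3 and day 0 at a Benjamini-Hochberg adjusted p under 0.05, and such genes are called here. At day 3 4829 genes (24.2%) were higher and 4673 (23.4%) were lower. Past a 2-fold difference lay 11.8% of genes, of which 1499 (7.52%) were higher and 857 (4.3%) were lower. The higher genes made up 50.8% of the calls, 47.8% after quantile normalization, 48.4% with equal array medians, and 38.1% with equal medians over the 19938 genes alone, a setting added after the data were seen. Under that last setting the median difference over all genes moved to -0.18, against -0.07 with the values as deposited, and the medians of gene lists below are to be read against -0.07. The median SE over all genes was 0.0988. As a guide to low levels, 95% of the 1027 olfactory receptor genes, which muscle is not known to use, averaged under 7.4 over the 4 arrays, and 5 of them were called higher and 94 lower. Among the 4 pools the left pool of day 0 stood apart in liver genes, and the results it moves most are given without it as well.

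Many of the genes furthest above day 0 are known from myeloid cells and from matrix remodelling. Ms4a6d, a membrane protein of macrophages, stood at 12.25 and 12.26 at day 3, against 7.04 and 7.17 at day 0, a difference of 5.15 ± 0.09 (adjusted p = 1.15e-10). Timp1, a secreted inhibitor of matrix metalloproteinases, stood at 12.94 and 13.02 at day 3, against 8.12 and 7.72 at day 0 (5.06 ± 0.11, adjusted p = 3.29e-10). The monocyte chemokine Ccl2 stood at 12.25 and 12.40 at day 3, against 7.84 and 7.51 at day 0 (4.65 ± 0.12, adjusted p = 6.36e-10). In each of these genes both day 3 pools lay above both day 0 pools, which the rule for naming the 20 required. The gap was many times that between the pools of a day. Over all 19938 genes, both day 3 pools lay above both day 0 pools in 6281 and below both in 7971. Next came Ms4a4a (4.56 ± 0.10), Ccl3 (4.51 ± 0.15), the receptor of complement fragment C3a, C3ar1 (4.28 ± 0.09), Ccl7 (4.26 ± 0.10) and heme oxygenase Hmox1 (4.16 ± 0.09), which breaks down heme. Ankrd1, a titin-binding protein that fibres make under mechanical stress, stood at 13.15 and 13.10 at day 3, against 9.21 and 8.89 at day 0 (4.08 ± 0.13). Lox, the enzyme that starts collagen cross-linking, stood at 12.81 and 12.72 at day 3, against 8.82 and 8.66 at day 0 (4.02 ± 0.08). The next 10 were Tlr13, Nxpe5, Ms4a7, Clec4e, Lilr4b, Msr1, Ccr2, Mpeg1, Ms4a6c and Ccl6, between 4.01 ± 0.22 for Tlr13 and 3.68 ± 0.13 for Ccl6. In 7 of the 20, namely Ms4a6d, Ms4a4a, Ccl3, Tlr13, Nxpe5, Ms4a7 and Clec4e, the day 0 mean lay under the guide of 7.4, so their differences are set against low levels and may understate the change.

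Many of the genes furthest below day 0 are known from muscle fibres. Mylk4, a kinase of the myosin light chain kinase family, stood at 9.53 and 9.80 at day 3, against 13.51 and 13.43 at day 0 (-3.81 ± 0.18, adjusted p = 2.89e-08), 14-fold lower. Ky, a protein of the fibre's cytoskeleton whose loss causes kyphoscoliosis in mice, stood at 7.43 and 7.50 at day 3, against 11.02 and 10.88 at day 0 (-3.48 ± 0.14). Myostatin, Mstn, the secreted inhibitor of muscle growth, stood at 8.0 and 8.43 at day 3, against 11.39 and 11.25 at day 0 (-3.11 ± 0.19, adjusted p = 1.70e-07). The day 3 pools of these genes lay below both day 0 pools, as the rule required, and again by far more than the pools of a day differed. Musclin, Ostn, a peptide that muscle secretes, fell by 3.10 ± 0.18, the metalloproteinase inhibitor Timp4 by 3.43 ± 0.15, and Ppargc1a, the coactivator that drives mitochondrial genes, by 2.97 ± 0.17. Ddit4l, an inhibitor of the growth kinase mTOR, fell by 2.92 ± 0.11, the sodium channel subunit Scn4b by 3.03 ± 0.19 and the lactate dehydrogenase Ldhb by 2.93 ± 0.20. Also among the 20 furthest below day 0 were Odf3l2, Smco1, Gdap1, Retnla, Plcd4, Lrrc38, Adhfe1, Lrrc30, Klhl33 and C7, between -2.97 ± 0.17 for C7 and -3.82 ± 0.12 for Odf3l2. The list of 20 also held Saa2, an acute-phase protein of the liver, at 5.81 and 5.82 at day 3, against 8.0 and 11.27 at day 0 (-3.82 ± 0.86, adjusted p = 0.00319). The pools of day 0 lay apart, and without the left pool of day 0 the difference was -2.18, so its place among the 20 rests on that pool. The day 3 means of Saa2, Odf3l2, Gdap1, Retnla, Lrrc38 and Klhl33, 6 of the 20, lay under the guide of 7.4, and the sizes of their differences are likewise set against low levels.

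**Figure D1:**
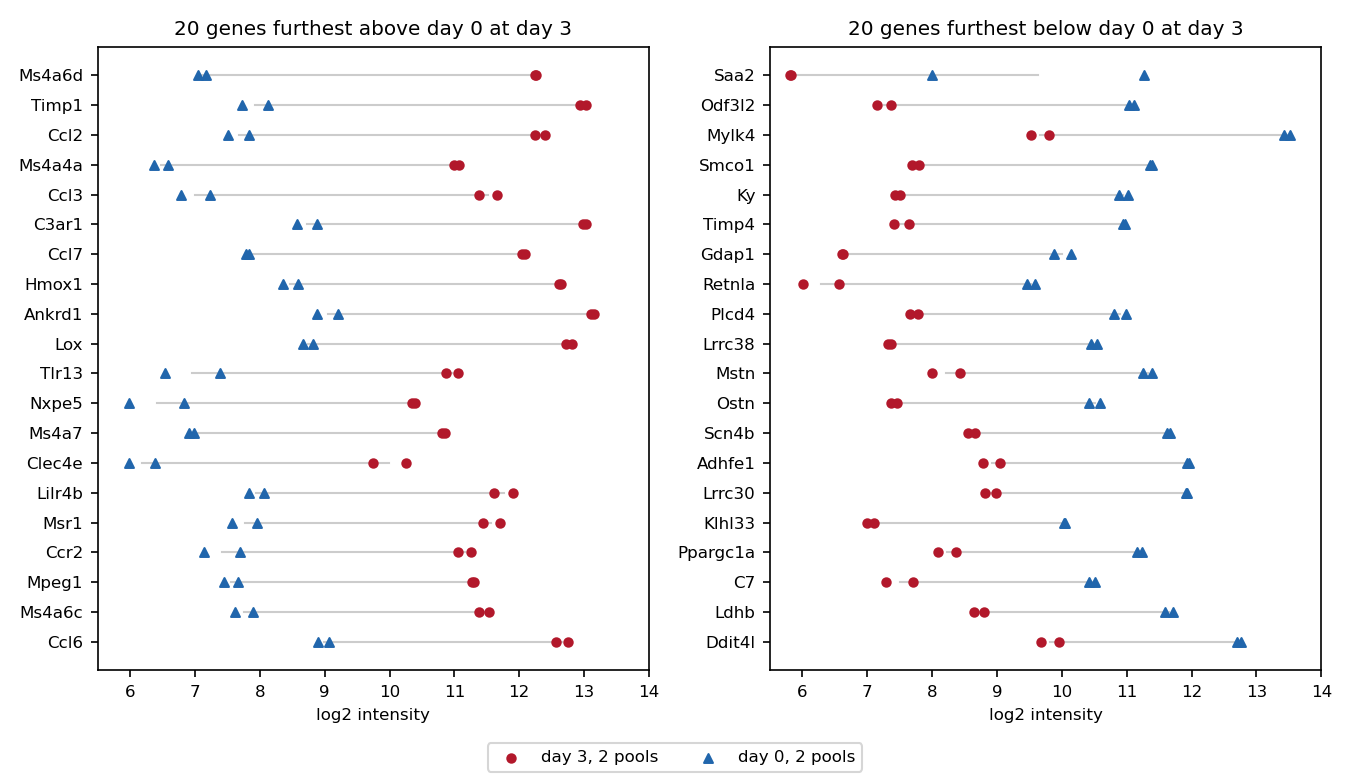
Log2 intensity (horizontal axis) of the 20 genes furthest above day 0 and the 20 furthest below it. Red circles are the 2 pools of day 3, blue triangles are the 2 pools of day 0, and grey lines join the day means. In the left panel every day 3 pool lies above every day 0 pool of its gene. In the right panel every day 3 pool lies below, and the pools of day 0 lie furthest apart for Saa2.

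Set out by function, the gene lists ran from receptors of myeloid cells, all of whose measured members were higher, to respiratory complex I and the fast sarcomere, all of whose measured members were lower. The lists hold 1554 entries, 1441 of them measured, and some share members. Counts below give genes that rose and fell among those measured, beside 24.2% higher and 23.4% lower among all genes.

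**Figure D2:**
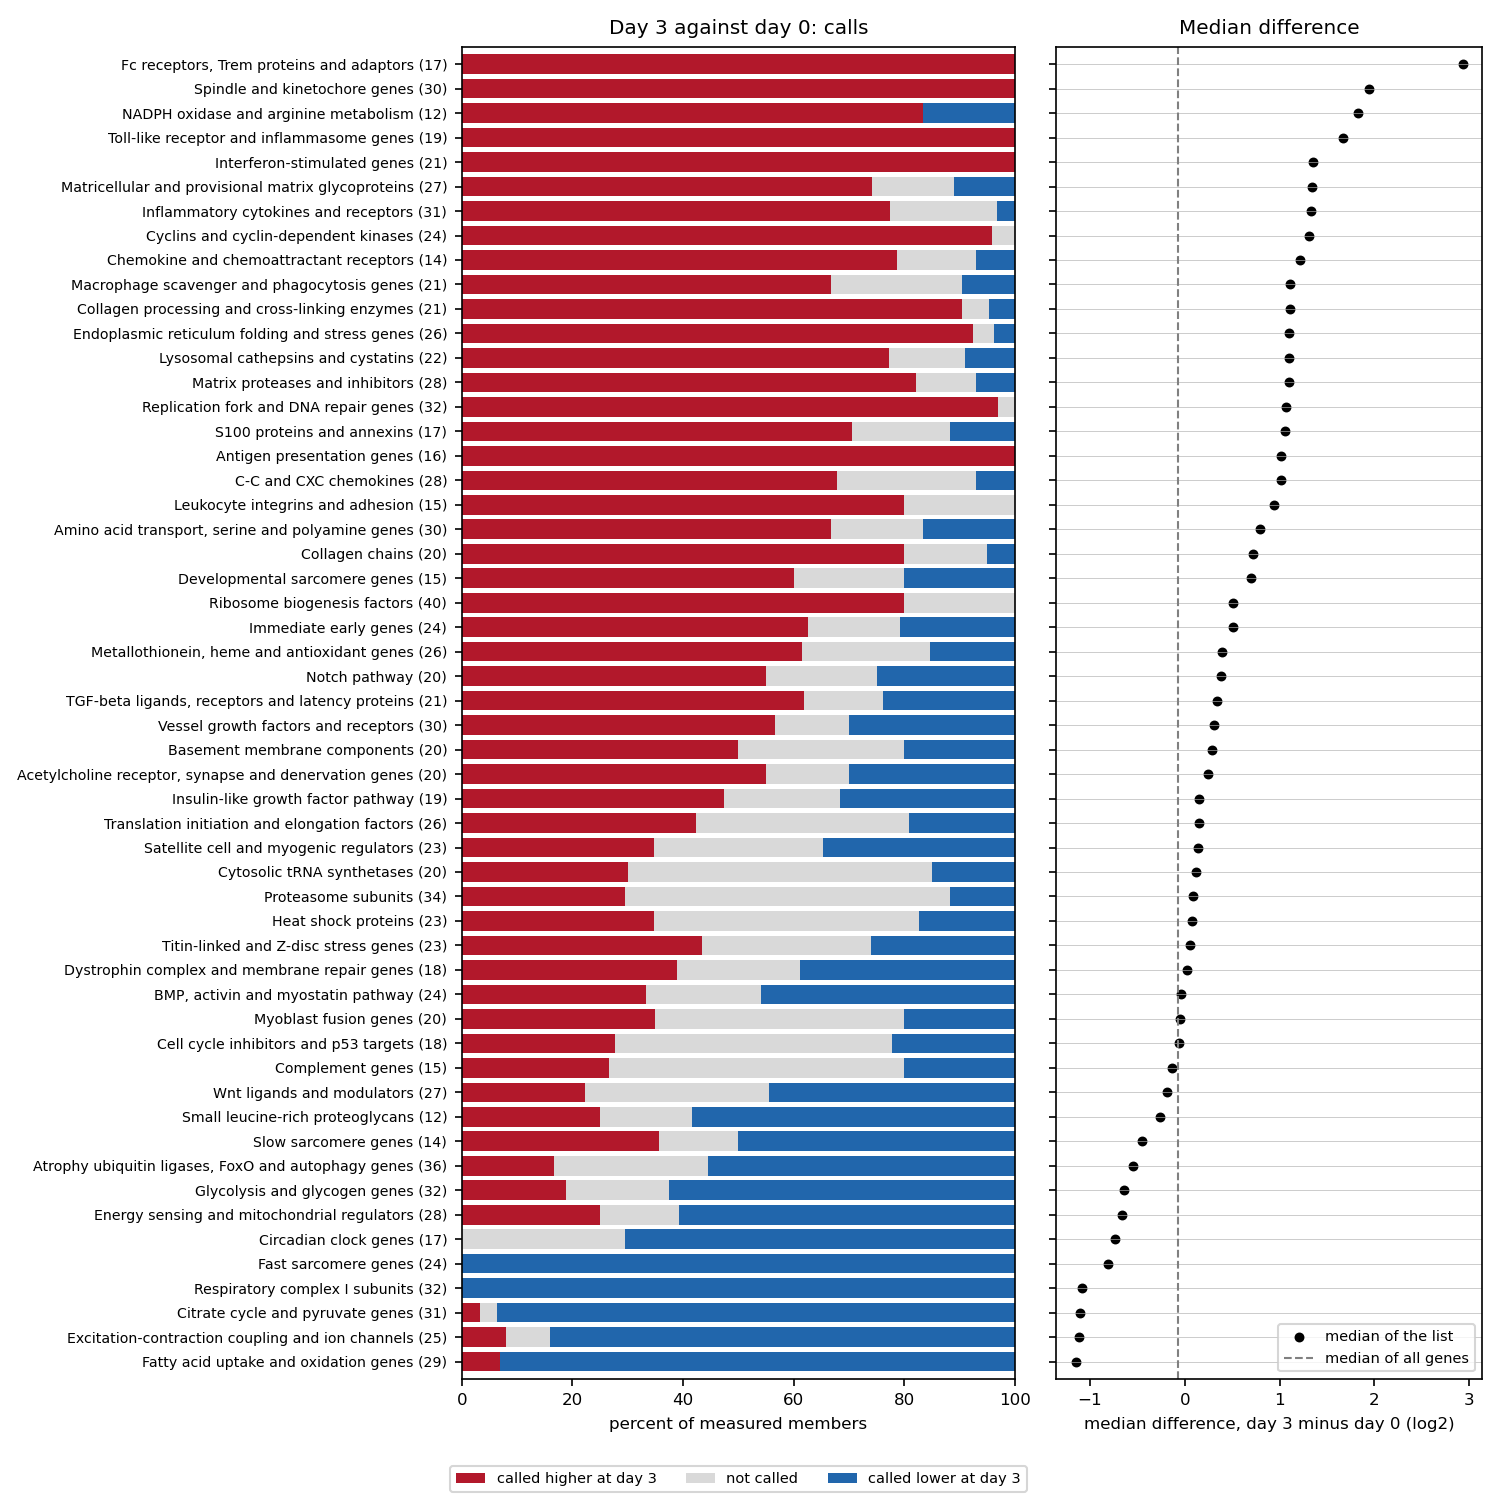
For each of 54 pathway lists, with the number of measured genes in brackets, the left panel gives the percent of members called higher at day 3 (red), not called (grey) and called lower at day 3 (blue), and the right panel gives the median difference, day 3 minus day 0, in log2. The list of Fc receptors and Trem proteins has the highest median, at 2.93, and the list of fatty acid genes has the lowest, at -1.15; the dashed line marks the median of all genes at -0.07.

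Chemokines, the secreted proteins that call leukocytes into tissue, were mostly higher at day 3. Of 28 measured, 19 rose, 2 fell and 7 were not called, with a median of 1.02. Ccl7, which acts with Ccl2 on the receptor Ccr2, stood at 12.09 and 12.05 at day 3, against 7.84 and 7.78 at day 0. Ccl3, a ligand of Ccr1, stood at 11.38 and 11.66 at day 3, against 6.79 and 7.23 at day 0. The neutrophil chemokine Cxcl2 (2.70 ± 0.28) and the interferon-induced Cxcl10 (2.41 ± 0.14) rose too, while the eosinophil chemokine Ccl11 fell by 1.15 ± 0.12 and the B-cell chemokine Cxcl13 stood at -0.17 ± 0.20 without passing the test. On the receptor side 11 of 14 rose and 1 fell. Ccr2, which marks inflammatory monocytes, stood at 11.06 and 11.26 at day 3, against 7.70 and 7.14 at day 0 (3.74 ± 0.16, adjusted p = 1.29e-08). Ccr1 (3.55 ± 0.23) and the C5a receptor C5ar1 (3.50 ± 0.12) rose, and Ccrl2, a receptor that binds chemerin without signalling, fell by 1.18 ± 0.13. Ccr2 and its ligands Ccl2 and Ccl7 each stood above day 0 in both pools, as the rule for naming the genes furthest above day 0 required.

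Cytokines and their receptors followed the same direction, with 24 of 31 higher, 1 lower and a median of 1.33. Interleukin-1 beta, Il1b, stood at 10.11 and 10.04 at day 3, against 7.06 and 7.12 at day 0 (2.99 ± 0.19). The interleukin-4 receptor Il4ra (2.92 ± 0.10), the shared receptor chain Csf2rb (2.54 ± 0.15) and the oncostatin M receptor Osmr (1.53 ± 0.07) rose. Il6 stood at 7.40 and 7.31 at day 3, against 5.11 and 5.09 at day 0 (2.26 ± 0.14), and it lies among the dimmest genes, those with a mean under 7.5. Lifr, the receptor of leukemia inhibitory factor, was the member that fell, by 1.24 ± 0.13, while its ligand Lif rose by 0.44 ± 0.09. The shared chain Il6st stood at 0.16 ± 0.07 and Il11 at 0.24 ± 0.12, neither of them called.

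Surface receptors of macrophages rose together. All 17 measured Fc receptors, Trem proteins and adaptors rose, with a median of 2.93, and so did all 19 measured members of the list of Toll-like receptor and inflammasome genes, with a median of 1.67. That list does not hold every relative: by symbol, 9 of 10 Tlr genes but 4 of 19 Nlrp genes, the family of inflammasome sensors such as Nlrp3, were higher. Clec4e, which senses damaged cells and mycobacterial lipid, stood at 9.75 and 10.25 at day 3, against 6.38 and 5.99 at day 0 (3.81 ± 0.20). The activating immunoglobulin receptors Fcgr4 (3.47 ± 0.15) and Fcgr1 (3.31 ± 0.10) and the C-type lectins Clec4n (3.51 ± 0.12) and Clec4d (3.46 ± 0.18) rose by similar amounts. Among the Toll-like receptors, Tlr13 stood at 10.88 and 11.06 at day 3, against 7.39 and 6.53 at day 0 (4.01 ± 0.22). The nucleic acid sensors Tlr7 (2.96 ± 0.08) and Tlr8 (2.41 ± 0.10), the lipopeptide sensor Tlr1 (2.91 ± 0.10) and the lipopolysaccharide co-receptor Cd14 (2.27 ± 0.17) rose. Of the leukocyte integrins and adhesion genes 12 of 15 rose and 0 fell, led by the macrophage integrin Itgam (3.53 ± 0.19) and its partner Itgb2 (2.84 ± 0.10).

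Most listed genes of uptake and digestion were higher as well. Of the scavenger and phagocytosis genes 14 of 21 rose and 2 fell. The scavenger receptor Msr1 stood at 11.44 and 11.70 at day 3, against 7.58 and 7.96 at day 0 (3.80 ± 0.13). Gpnmb (3.50 ± 0.17), a glycoprotein of lipid-loaded macrophages, the lectin Lgals3 (3.42 ± 0.11), the mannose receptor Mrc1 (2.95 ± 0.09) and the haptoglobin receptor Cd163 (1.11 ± 0.13) rose, while the fatty acid receptor Cd36, which fibres and endothelium also make, fell by 0.62 ± 0.08. The bridging proteins Gas6 (0.17 ± 0.08) and Mfge8 (0.09 ± 0.07), which tie dying cells to phagocytes, were not called. In the lysosome 17 of 22 cathepsins, cystatins and related proteins rose and 2 fell (1 without the right pool of day 3), with Ctss (3.57 ± 0.09), the cathepsin that trims the class II invariant chain, in front. All 16 antigen presentation genes rose, with a median of 1.02, among them the class II chains H2-Ab1 (1.99 ± 0.08) and H2-Eb1 (1.85 ± 0.08), the invariant chain Cd74 (1.92 ± 0.08) and the costimulatory protein Cd86 (1.61 ± 0.13).

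The oxidative burst and arginine genes included some of the wider differences. Of 12 measured, 10 rose and 2 fell, and the count that fell was 1 without the left pool of day 0 or without either pool of day 3. The subunits of the phagocyte oxidase Cyba (2.58 ± 0.11) and Cybb (2.23 ± 0.20) rose, and the iron exporter Slc40a1 fell by 0.87 ± 0.13. Arginase, Arg1, which takes arginine away from nitric oxide synthesis, stood at 11.42 and 11.79 at day 3, against 7.37 and 9.16 at day 0 (3.33 ± 0.43), so that the pools of day 0 lay apart while both day 3 pools lay above them. Without the left pool of day 0 its difference was 4.23. The inducible nitric oxide synthase Nos2 rose by 0.55 ± 0.14.

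Complement genes went both ways, with 4 of 15 higher and 3 lower. The chains of C1q, C1qb (2.87 ± 0.10), C1qc (2.50 ± 0.11) and C1qa (2.49 ± 0.10), and properdin, Cfp (2.77 ± 0.12), made by macrophages and other myeloid cells, rose. C7, a part of the membrane attack complex, stood at 7.29 and 7.71 at day 3, against 10.42 and 10.51 at day 0 (-2.97 ± 0.17). The list's median was -0.14, and 0.21 with the left pool of day 0, in which genes of the liver stood high, left out.

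The listed interferon-stimulated genes were all higher, 21 of 21, with a median of 1.35, whereas by symbol 10 of 15 Ifi genes were higher and 0 lower. Oasl2 (2.49 ± 0.10) and Mx1 (1.98 ± 0.16), antiviral effectors, and Irf7 (2.30 ± 0.15), the factor that amplifies the response, were among the leaders. Ifit1, which binds viral RNA caps, stood at 9.56 and 9.19 at day 3, against 7.48 and 7.42 at day 0 (1.93 ± 0.16). Cxcl10 stood at 10.46 and 10.34 at day 3, against 8.21 and 7.77 at day 0 (2.41 ± 0.14). At day 1 these same genes had stood higher still, Ifit1 at 11.43 and 11.56 and Cxcl10 at 12.55 and 12.32.

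The promoters of Ifit1 and Cxcl10 are shown because they hold the interferon-stimulated response element, a motif known from genes that interferon induces. Each window is the 250 bases before the start of the gene, from RefSeq on GRCm38.p6, read in the direction of the gene. Capitals mark GAAA, any 2 bases and GAAA again, or the reverse complement.
Ifit1 (chr19:34640639-34640888, plus strand): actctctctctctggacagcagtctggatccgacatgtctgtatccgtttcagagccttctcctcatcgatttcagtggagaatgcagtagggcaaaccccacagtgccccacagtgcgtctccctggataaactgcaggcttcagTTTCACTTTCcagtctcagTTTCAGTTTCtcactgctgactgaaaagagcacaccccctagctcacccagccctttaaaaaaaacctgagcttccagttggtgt
Cxcl10 (chr5:92348890-92349139, minus strand): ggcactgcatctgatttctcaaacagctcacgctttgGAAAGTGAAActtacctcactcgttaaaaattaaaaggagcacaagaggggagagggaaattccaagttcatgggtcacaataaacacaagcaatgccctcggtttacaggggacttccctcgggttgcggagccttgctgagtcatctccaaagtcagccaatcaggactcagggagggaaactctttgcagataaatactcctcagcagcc
The Ifit1 window holds 2 matches and the Cxcl10 window 1. On both strands the motif was in 8 of 20 windows of the interferon list, against 2.98% of all 32851 windows of the same length. The windows printed were picked among those with a match, and a match is a description of the letters, not of binding.

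Marker genes of single cell types were summed in each pool to show how the mixture of cells read on the arrays. The macrophage and monocyte markers, of which 14 of 14 rose with a median of 2.91, summed to intensities of 50466 and 49436 at day 3, against 7728 and 6961 at day 0. The muscle fibre markers, of which 8 of 8 fell with a median of -0.57, summed to 95730 and 96755 at day 3, against 141976 and 143426 at day 0. Neither pair of ranges overlapped, and the part of these shifts in the gene groups of macrophages and fibres was not tested. Neutrophil markers summed to 10226 and 16218 at day 3, against 13081 and 6886 at day 0, so the pools overlapped, and 4 of 14 rose and 0 fell. Within that list the receptor Cxcr2 stood at 10.23 and 10.59 at day 3, against 7.22 and 6.66 at day 0 (3.47 ± 0.35), whereas the granule protein Ngp of marrow precursors stood at 7.90 and 10.70 at day 3, against 11.71 and 10.48 at day 0, which was not called (-1.79 ± 0.91). With the left pool of day 0 left out 2 neutrophil markers fell, and with that of day 3 left out 1 did.

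Hepatocyte markers, which a muscle should lack, summed to 29311 and 47653 at day 3, against 23426 and 97309 at day 0, with the left pool of day 0 highest, and 0 of 19 rose and 1 fell. Albumin, Alb, stood at 13.09 and 13.57 at day 3, against 12.75 and 13.82 at day 0. With the left pool of day 0 left out the list's median was 0.66, against -0.48 with all pools, and its counts were 1 higher, while 3 were lower without the right pool of day 0. Dendritic cell markers summed to 4271 and 3986 at day 3, against 2382 and 2316 at day 0, with 7 of 9 higher, and T and NK lymphocyte markers to 2275 and 2203 at day 3, against 2277 and 2135 at day 0, with 1 of 16 higher and 2 lower. Without the right pool of day 0 that lymphocyte list had 3 higher and 0 lower, and without any other single pool it had 1 lower. B lymphocyte markers summed to 1333 and 1290 at day 3, against 1499 and 1400 at day 0, with 0 of 8 higher and 2 lower, or 1 lower without any pool but the left pool of day 0. No intensity was 0, the lowest on any array being 5.9.

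**Figure D3:**
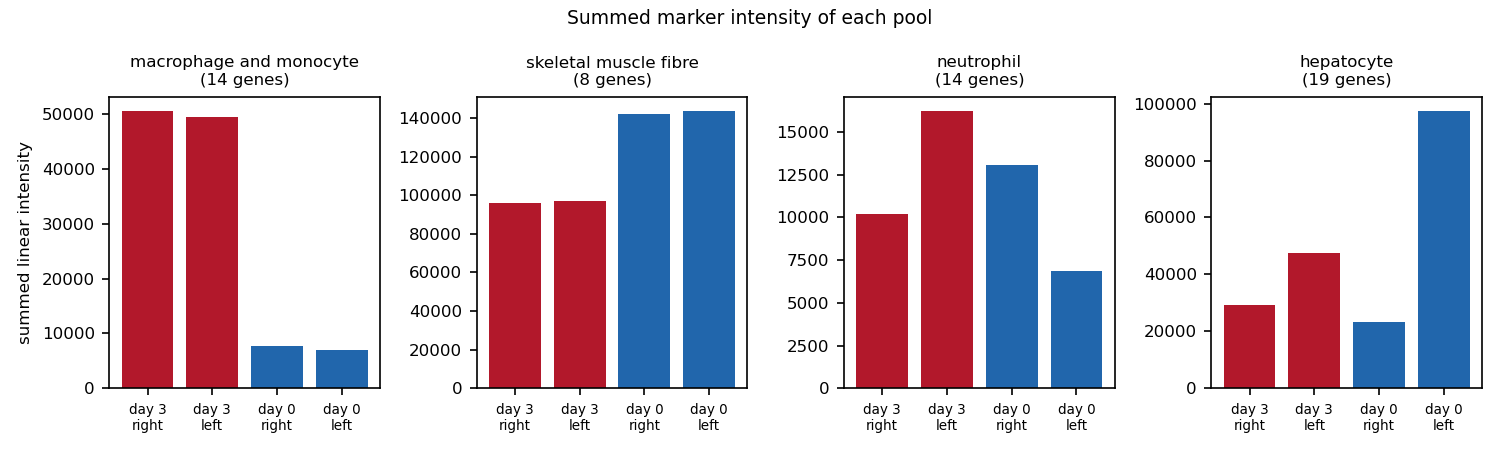
Summed linear intensity of the macrophage and monocyte, skeletal muscle fibre, neutrophil and hepatocyte markers in each pool. Each bar is 1 array, red for day 3 and blue for day 0. Both macrophage sums of day 3 lie above both of day 0, both fibre sums of day 3 lie below both of day 0, and the neutrophil and hepatocyte sums of the 2 days overlap.

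Markers of vessel, connective tissue and nerve differed less than those of macrophages did. Endothelial markers summed to 23322 and 22176 at day 3, against 19720 and 19318 at day 0, with 9 of 14 higher, among them Pecam1 (0.62 ± 0.07), and 3 lower, among them the growth factor receptor Kdr (-0.73 ± 0.09). Smooth muscle and pericyte markers summed to 27364 and 27785 at day 3, against 34591 and 34617 at day 0, and 8 of 12 fell, with the potassium channel subunit Abcc9 (-1.51 ± 0.12), Rgs5 (-1.45 ± 0.10) and smooth muscle myosin Myh11 (-1.41 ± 0.09) lowest. These mural cell genes fell while smooth muscle actin Acta2 stood at 0.06 ± 0.09 and was not called. Fibro-adipogenic progenitor markers summed to 31278 and 30702 at day 3, against 33622 and 32438 at day 0, with 5 of 15 higher, 3 without the left pool of day 0, and 8 lower. Tendon markers summed to 13596 and 14301 at day 3, against 10397 and 9602 at day 0, yet 3 of 9 rose and 4 fell, with a median of -0.06. The tendon factor Scx (1.41 ± 0.09) and thrombospondin Thbs4 (1.27 ± 0.08) rose, and tenomodulin Tnmd fell by 0.82 ± 0.17. Adipocyte markers summed to 25225 and 24831 at day 3, against 30437 and 30969 at day 0, with 0 of 11 higher and 6 lower. Schwann cell and nerve markers summed to 10447 and 10336 at day 3, against 8198 and 8096 at day 0, with 3 of 12 higher and 3 lower. Satellite cell markers summed to 17672 and 17674 at day 3, against 17320 and 16974 at day 0, and 3 of 9 rose and 2 fell.

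The listed genes of cell division were higher almost without exception. The lists do not hold every relative: by symbol, 17 of 38 Kif genes and 15 of 32 Cdc genes were higher, and 7 and 8 were lower. All 30 spindle and kinetochore genes rose, with a median of 1.94, and of the replication fork and DNA repair genes 31 of 32 rose, with a median of 1.06. Polo-like kinase Plk1, which drives entry into mitosis, stood at 10.49 and 10.70 at day 3, against 7.89 and 7.38 at day 0 (2.96 ± 0.18, adjusted p = 1.60e-07). The checkpoint kinase Bub1 (2.88 ± 0.22), the cleavage furrow protein Anln (2.70 ± 0.17), the checkpoint protein Mad2l1 (2.57 ± 0.21) and the midzone protein Prc1 (2.56 ± 0.19) followed. The helicase subunit Mcm6, which unwinds DNA at replication origins, stood at 9.85 and 9.80 at day 3, against 7.88 and 7.33 at day 0 (2.22 ± 0.17, adjusted p = 9.39e-07). The nucleotide enzymes Rrm2 (2.81 ± 0.24) and Tyms (1.89 ± 0.10) rose, and the clamp loader subunit Rfc4 (-0.02 ± 0.13) was not called. Mki67 stood at 10.55 and 10.63 at day 3, against 9.0 and 7.77 at day 0 (2.20 ± 0.38), so that the pools of day 0 lay apart and both day 3 pools lay above them.

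Listed cyclins and their kinases were higher in 23 of 24 cases and lower in 0, whereas by symbol 12 of 27 Cdk genes were higher and 4 lower. Ccna2, the cyclin of S phase and mitotic entry, stood at 10.88 and 10.89 at day 3, against 8.34 and 7.50 at day 0 (2.96 ± 0.29). Cdk1 (2.46 ± 0.17), Ccnb2 (2.40 ± 0.30), the G1 kinase Cdk6 (2.19 ± 0.13) and the G1 cyclin Ccnd1 (2.0 ± 0.11) rose, and the retinoblastoma gene Rb1 stood at 0.17 ± 0.08 without a call. Myc, the growth factor-induced activator of cell growth genes, stood at 11.13 and 11.36 at day 3, against 8.20 and 8.14 at day 0 (3.07 ± 0.09). The inhibitors and p53 targets were mixed, with 5 of 18 higher, led by the stress gene Gadd45a (1.61 ± 0.08), and 4 lower, among them Ccng1 (-0.79 ± 0.09).

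The promoters of Plk1 and Mcm6 are shown for the letters known from such genes, the CCAAT box bound by NF-Y in mitotic genes and the E2F site TTTGGCGC in replication genes. Capitals mark CCAAT or its reverse complement in the Plk1 window and TTTGGCGC or its reverse complement in the Mcm6 window, and no other motif. The windows are again 250 bases of RefSeq sequence on GRCm38.p6.
Plk1 (chr7:122159185-122159434, plus strand): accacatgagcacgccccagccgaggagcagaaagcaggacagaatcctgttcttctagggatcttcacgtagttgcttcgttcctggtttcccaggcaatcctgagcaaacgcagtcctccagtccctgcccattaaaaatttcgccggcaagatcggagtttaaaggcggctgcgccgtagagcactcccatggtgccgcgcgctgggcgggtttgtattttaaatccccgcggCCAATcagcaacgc
Mcm6 (chr1:128359706-128359955, minus strand): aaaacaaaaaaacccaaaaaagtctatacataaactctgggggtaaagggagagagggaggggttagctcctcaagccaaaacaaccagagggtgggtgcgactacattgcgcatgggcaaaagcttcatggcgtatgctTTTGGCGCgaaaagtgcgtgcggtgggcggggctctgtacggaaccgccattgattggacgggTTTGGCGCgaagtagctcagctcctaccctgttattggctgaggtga
A CCAAT box was in 23 of 29 windows of the spindle list (79.3%), against 33.8% of all windows. The cell cycle homology region TTTGAA was in 7 of 29 (24.1%), against 5252 of all 32851. In the replication list TTTGGCGC was in 3 of 30 windows (10.0%), against 0.417% of all, and TTTCCCGC in 3 of 30 (10.0%), against 0.895%.

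Most listed collagen chains and most listed enzymes that process and cross-link collagen were higher at day 3. Of the listed collagen chains 16 of 20 rose and 1 fell, with a median of 0.72. That list does not hold every collagen: by symbol, 16 of 44 Col genes were higher and 4 lower, with a median of -0.07. The fibril collagen Col3a1 stood at 12.11 and 11.90 at day 3, against 10.05 and 9.89 at day 0 (2.03 ± 0.08). Col8a1 (2.08 ± 0.09), Col1a1 (1.97 ± 0.09) and Col12a1 (1.87 ± 0.10), which coats fibrils, rose by like amounts, and Col22a1, a collagen of the muscle-tendon junction, fell by 0.38 ± 0.08. The count of collagens that fell was 2 without the right pool of day 3. Of the processing enzymes 19 of 21 rose and 1 fell, and without single pools the number that fell lay between 0 and 2. After Lox came the lysyl hydroxylase Plod2 (3.14 ± 0.11), the prolyl hydroxylase P4ha3 (2.69 ± 0.09) and the oxidase Loxl3 (2.23 ± 0.09).

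Provisional matrix, the first scaffold of repair, followed the same direction, with 20 of 27 higher and 3 lower and a median of 1.34. Tenascin, Tnc, which loosens cell adhesion, stood at 12.56 and 12.59 at day 3, against 9.26 and 8.73 at day 0 (3.59 ± 0.15). Periostin, Postn, stood at 12.95 and 12.84 at day 3, against 10.38 and 10.12 at day 0 (2.64 ± 0.17). The hyaluronan receptor Cd44 (2.73 ± 0.10), versican Vcan (2.60 ± 0.11) and fibronectin Fn1 (1.63 ± 0.08) rose, the fibulins Fbln1 (0.15 ± 0.08) and Fbln5 (0.04 ± 0.10) were not called, and Ccn3 fell by 0.77 ± 0.13. Listed proteases and inhibitors were higher in 23 of 28 cases and lower in 2. That list does not hold every relative. By symbol, 10 of 22 Mmp, 7 of 34 Adam and 11 of 18 Adamts genes were higher, and 1, 6 and 1 were lower. Behind Timp1 came the sheddase Adam8 (3.63 ± 0.17), Mmp19 (2.39 ± 0.12) and the aggrecanase Adamts4 (2.27 ± 0.09). The inhibitors Timp1 and Timp4 thus lay at opposite ends, 5.06 ± 0.11 and -3.43 ± 0.15.

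Small leucine-rich proteoglycans, which set the width of collagen fibrils, mostly stood below day 0. Of 12 measured, 3 rose and 7 fell, and 4 fell without the right pool of day 0 or the right pool of day 3. Chondroadherin, Chad (-1.72 ± 0.25), Ecm2 (-1.32 ± 0.09) and fibromodulin Fmod (-1.05 ± 0.15) were lowest, and biglycan Bgn (1.44 ± 0.06) and asporin Aspn (0.87 ± 0.07) rose. Basement membrane genes were higher in 10 of 20 cases and lower in 4. The laminin receptor subunit Itga7 (1.41 ± 0.09), nidogen Nid2 (1.26 ± 0.09) and laminin Lamb1 (1.13 ± 0.09) rose, and Lama2, the laminin chain of the mature fibre surface, fell by 0.76 ± 0.08.

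Signals that steer growth and fibrosis went both ways. In the TGF-beta group 13 of 21 rose and 5 fell. Tgfb1 stood at 11.08 and 11.12 at day 3, against 9.05 and 8.88 at day 0 (2.13 ± 0.09). The induced matrix protein Tgfbi (2.36 ± 0.09) and the latency protein Ltbp2 (1.60 ± 0.12) rose, Ltbp4 fell by 1.04 ± 0.08, and Tgfb3 (0.15 ± 0.08) was not called. In the BMP, activin and myostatin group 8 of 24 rose and 11 fell. The activin subunit Inhba (1.17 ± 0.13) and the follistatin-like protein Fstl1 (1.87 ± 0.08) rose and Bmp5 fell by 0.94 ± 0.12, while follistatin Fst (0.11 ± 0.09) and Bmp4 (0.06 ± 0.09) were not called. The BMP target Id2 stood at 11.63 and 11.87 at day 3, against 9.36 and 10.66 at day 0 (1.74 ± 0.30), and the difference was 1.09 without the right pool of day 0.

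Insulin-like growth factor genes were higher in 9 of 19 cases and lower in 6. Igf1, a growth factor of muscle and macrophages, stood at 10.68 and 10.68 at day 3, against 9.80 and 10.39 at day 0 (0.59 ± 0.22, adjusted p = 0.0446). Its call was lost without the right pool of day 0, where the difference was 0.30, or without either pool of day 3. It was also lost with side as a block and with the robust variance prior. The same held with only the arrays of the days compared and with equal medians over the genes alone. The binding protein Igfbp3 rose by 2.63 ± 0.12, the adaptor Grb10 by 1.15 ± 0.07 and the kinase Akt1 by 0.92 ± 0.08, while the receptor substrate Irs1 fell by 1.0 ± 0.07. The other probe set of Irs1 moved less. Igf2 rose by 0.41 ± 0.09. Wnt genes fell more often than they rose, 12 against 6 of 27, though the widest difference was a rise of the secreted Wnt modulator Sfrp2, at 11.71 and 11.49 at day 3, against 8.09 and 8.22 at day 0 (3.44 ± 0.16). Sfrp1 (1.37 ± 0.10) rose with it, and the antagonist Frzb (-1.86 ± 0.10) and the receptor Fzd9 (-1.37 ± 0.12) fell.

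Notch genes were higher in 11 of 20 cases and lower in 5, or in 3 without either pool of day 0 or without the left pool of day 3. The modifier Lfng (1.77 ± 0.12), the receptor Notch2 (1.32 ± 0.09) and the sheddase Adam10 (1.32 ± 0.07) rose, and the ligand Jag2 fell by 0.64 ± 0.09. Among vessel growth factors 17 of 30 rose and 9 fell. Apelin, Apln, made by sprouting endothelium, stood at 11.63 and 11.59 at day 3, against 8.77 and 8.35 at day 0 (3.05 ± 0.12). Placental growth factor Pgf (2.44 ± 0.14), Angptl4 (2.55 ± 0.14) and Hbegf (1.86 ± 0.11) rose, whereas Vegfa, the main endothelial growth factor of muscle, fell by 0.80 ± 0.12 and the muscle-specific Fgf6 by 1.63 ± 0.12.

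Satellite cell and myogenic regulators did not move as a block. Of 23 measured, 8 rose and 8 fell. Myog, the factor that starts differentiation, stood at 9.74 and 9.58 at day 3, against 7.67 and 7.60 at day 0 (2.03 ± 0.17, adjusted p = 1.59e-06). Myod1, which marks activated satellite cells, stood at 11.59 and 11.59 at day 3, against 10.33 and 10.33 at day 0 (1.26 ± 0.12). Pax7, the marker of the stem cell itself, stood at 8.94 and 8.94 at day 3, against 8.76 and 8.80 at day 0 and was not called (0.16 ± 0.09, adjusted p = 0.193). The day 3 pools of Myog and Myod1 lay above both day 0 pools, as they did in 6281 of all 19938 genes. Syndecan Sdc3 rose by 1.99 ± 0.08 and Eya1, a cofactor of the fast fibre programme, fell by 1.65 ± 0.10. Of the fusion genes 7 of 20 rose and 4 fell, and the membrane fusion protein Mymk stood at 10.65 and 10.39 at day 3, against 8.61 and 8.61 at day 0 (1.91 ± 0.13), while its partner Mymx stood at -0.15 ± 0.15 and was not called.

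Some genes that developing or denervated fibres use were higher too. In the developmental sarcomere list 9 of 15 rose and 3 fell. Embryonic myosin Myh3 stood at 9.59 and 9.38 at day 3, against 7.80 and 7.62 at day 0 (1.77 ± 0.21). Mybph (2.03 ± 0.12) and the cardiac and embryonic troponin Tnnt2 (1.52 ± 0.11) rose as well. The list of acetylcholine receptor and denervation genes had 11 of 20 higher and 6 lower. Runx1, a factor that fibres induce when they lose their nerve and that leukocytes also express, stood at 12.09 and 12.14 at day 3, against 9.13 and 8.83 at day 0 (3.14 ± 0.10). The fetal receptor subunit Chrng (1.26 ± 0.20) and the alpha subunit Chrna1 (1.28 ± 0.10) rose, while the adult subunit Chrne fell by 2.25 ± 0.11 and acetylcholinesterase Ache by 1.70 ± 0.11. Ncam1, found on activated satellite cells and denervated fibres, rose by 1.22 ± 0.11, and the receptor kinase Musk stood at 0.03 ± 0.07 without a call.

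Sarcomere genes of the mature fast fibre were lower at day 3. All 24 measured in the list fell, with a median of -0.81, and 22 or 23 did without single pools. The Z-disc cap of titin, Tcap, stood at 10.42 and 10.40 at day 3, against 12.59 and 12.38 at day 0 (-2.08 ± 0.15). The Z-disc proteins Myoz3 (-1.60 ± 0.16) and Myoz1 (-1.16 ± 0.13), the calcium store protein Casq1 (-1.09 ± 0.10) and the kinase Mylk2 (-1.48 ± 0.14) followed. The fast myosin Myh4 stood at 13.32 and 13.40 at day 3, against 13.91 and 13.95 at day 0 (-0.57 ± 0.12), on a scale whose highest value was 14.85. Skeletal actin Acta1 stood at 14.23 and 14.19 at day 3, against 14.38 and 14.40 at day 0 (-0.18 ± 0.07, adjusted p = 0.0425), and its call was lost without any single pool of the 4, with side as a block, with the robust variance prior, with only the arrays of the days compared and after quantile normalization, where the difference was -0.05.

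Slow fibre genes were not uniform. Of 14 measured, 5 rose and 7 fell. The light chain Myl3 stood at 8.33 and 8.44 at day 3, against 11.29 and 11.26 at day 0 (-2.89 ± 0.33), Myl2 fell by 2.05 ± 0.35 and the slow myosin Myh7 by 1.86 ± 0.42. Tpm3 rose by 1.66 ± 0.08, but its 4 probe sets gave differences from -0.82 to 1.66, so its direction depends on the probe set. Excitation-contraction coupling genes were lower in 21 of 25 cases and higher in 2, with a median of -1.12. The chloride channel Clcn1, which keeps fibres from firing repeatedly, stood at 8.88 and 9.05 at day 3, against 11.37 and 11.32 at day 0 (-2.38 ± 0.16). Myoregulin Mrln, an inhibitor of the calcium pump, fell by 2.17 ± 0.10 and the potassium channel Kcnj2 by 2.02 ± 0.10. The number that rose in this list was 1 without the right pool of day 0. The summed fibre markers, which include the fast sarcomere genes Myh4 and Acta1, moved the same way as these groups and are not a separate measure. The part of the markers in the result was not tested.

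Titin-linked and Z-disc stress genes split, with 10 of 23 higher and 6 lower and a median of 0.06, or -0.05 with equal medians over the genes alone. After Ankrd1 came the Z-disc sensor Csrp3 (1.46 ± 0.11), Xirp1 (1.25 ± 0.14), the small heat shock protein Hspb1 (1.10 ± 0.12) and Ankrd2 (0.72 ± 0.13), and Fhl3 fell by 1.14 ± 0.09. Desmin, Des, stood at -0.03 ± 0.07 and was not called. In the dystrophin complex and membrane repair list 7 of 18 rose and 7 fell. The repair protein Myof rose by 2.17 ± 0.09 and annexin Anxa2 by 2.37 ± 0.09, while the neuronal nitric oxide synthase Nos1, which sits at the fibre membrane, fell by 2.36 ± 0.10 and sarcoglycan Sgca by 1.27 ± 0.09. S100 proteins and annexins rose in 12 of 17 cases, with S100a6 (2.43 ± 0.09) and S100a4 (2.35 ± 0.11), and fell in 2, with S100a1 (-1.16 ± 0.10). The count that fell was 1 without the right pool of day 3.

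Listed genes of respiratory complex I, the citrate cycle and fatty acid use were lower in nearly every case. All 32 complex I subunits fell, with a median of -1.09. The core subunit Ndufs1 stood at 10.33 and 10.45 at day 3, against 12.18 and 12.20 at day 0 (-1.80 ± 0.08). Of the citrate cycle and pyruvate genes 29 of 31 fell and 1 rose, with Mdh1 (-1.57 ± 0.09), Idh3a (-1.57 ± 0.09) and Sdhb (-1.56 ± 0.10) among the lowest. The single riser was Pdk3 (2.07 ± 0.14), a kinase that blocks pyruvate dehydrogenase, and its relative Pdk4 stood at -0.10 ± 0.10 without a call. Fatty acid genes were lower in 27 of 29 cases and higher in 2. The lipase Lpl stood at 10.62 and 10.44 at day 3, against 12.44 and 12.47 at day 0 (-1.93 ± 0.09). Acadm (-1.88 ± 0.09), the binding protein Fabp3 (-1.75 ± 0.15) and Ucp3 (-1.71 ± 0.12) fell, while Cpt1a, the carnitine transferase form of liver and many other cells, rose by 1.48 ± 0.13.

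Glycolysis and glycogen genes were lower in 20 of 32 cases and higher in 6. The phosphorylase kinase subunit Phkg1, which turns on glycogen breakdown, stood at 9.13 and 9.41 at day 3, against 12.19 and 12.17 at day 0 (-2.91 ± 0.18). Ldhb (-2.93 ± 0.20), the glycogen phosphatase subunit Ppp1r3a (-2.52 ± 0.18) and the insulin-responsive glucose transporter Slc2a4 (-2.26 ± 0.18) fell. Among the energy sensors and mitochondrial regulators 17 of 28 fell and 7 rose. Ppargc1a stood at 8.09 and 8.37 at day 3, against 11.24 and 11.16 at day 0 (-2.97 ± 0.17, adjusted p = 9.64e-08), 7.83-fold lower. Mitochondrial creatine kinase Ckmt2 fell by 2.23 ± 0.19, the fatty acid receptor Ppara by 1.99 ± 0.20 and Nr4a1 by 1.84 ± 0.10, and Gabpa (-0.07 ± 0.08) and Ppard (0.05 ± 0.07) were not called.

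Within many enzyme families the form typical of adult muscle was lower while a non-muscle, slow or fetal form was higher. Pairs of such genes were written down after their values had been seen, so the counts are a description. Of 23 pairs 22 had both genes measured, and in 17 of these the other form rose and the adult muscle form fell. All 21 muscle forms fell. The glucose transporter of most cells, Slc2a1, stood at 12.75 and 12.83 at day 3, against 10.63 and 10.63 at day 0 (2.16 ± 0.08), and that of insulin-responsive tissue, Slc2a4, stood at 10.53 and 10.42 at day 3, against 12.77 and 12.69 at day 0 (-2.26 ± 0.18). Phosphoglycerate mutase Pgam1 rose by 2.37 ± 0.11 and the muscle form Pgam2 fell by 1.81 ± 0.14. Phosphofructokinase Pfkl (1.83 ± 0.09) and Pfkp (1.79 ± 0.14) rose and Pfkm fell by 1.01 ± 0.10. AMP deaminase Ampd3 rose by 1.74 ± 0.09 and Ampd1 fell by 1.64 ± 0.12.

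Further pairs came from the mitochondrion and from translation. The adenine nucleotide carrier Slc25a5 rose by 1.12 ± 0.08 and Slc25a4 fell by 1.11 ± 0.08, and the cytochrome oxidase subunit Cox6a1 rose by 0.96 ± 0.12 and Cox6a2 fell by 1.01 ± 0.11. Elongation factor Eef1a1 stood at 13.93 and 13.91 at day 3, against 12.81 and 12.86 at day 0 (1.08 ± 0.07). The muscle and nerve form Eef1a2 stood at 12.23 and 12.27 at day 3, against 13.18 and 13.18 at day 0 (-0.93 ± 0.12). Both pools of each day moved together in these pairs. In 2 pairs both genes fell, Cox7a2 (-0.95 ± 0.10) with Cox7a1 (-1.88 ± 0.15) and Mylk (-0.60 ± 0.08) with Mylk2, and in 3 the other form, Hk1, Fbp1 or Ckmt1, was not called. Fbp1, which the liver also makes, stood at 8.74 and 10.09 at day 3, against 8.65 and 11.45 at day 0, with the pools of each day apart. The muscle ribosomal protein Rpl3l, whose broadly expressed relative Rpl3 was not analysed here, stood at 9.70 and 9.67 at day 3, against 12.13 and 12.22 at day 0 (-2.49 ± 0.21). Over the other settings tried the number of opposite pairs lay between 15 and 18.

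**Figure D4:**
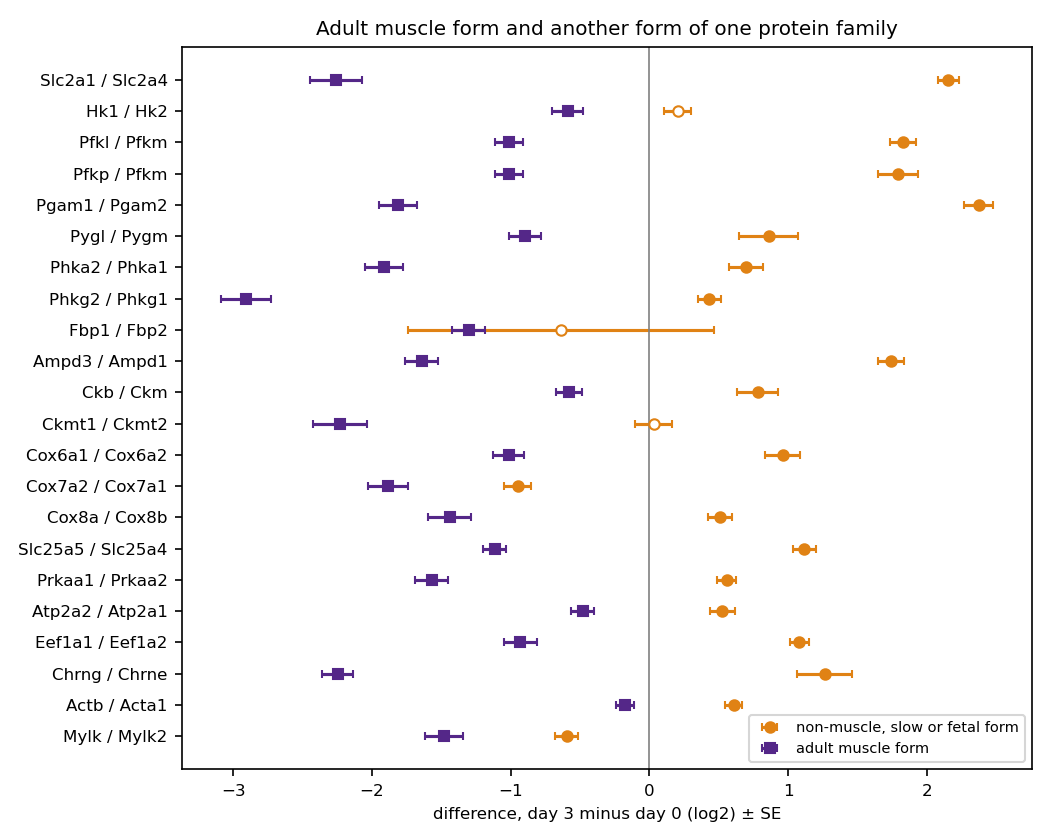
Difference in log2 intensity, day 3 minus day 0, ± SE from the fit, for 22 pairs of genes of one protein family. Orange circles are the non-muscle, slow or fetal form and purple squares the adult muscle form, and open symbols were not called. Every purple square lies left of 0, and 17 of the 22 orange circles are filled and lie right of it.

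Assembly factors of the ribosome were mostly higher. Of the ribosome biogenesis factors 32 of 40 rose and 0 fell, with a median of 0.51, and 1 fell without the left pool of day 3. The small nucleolar protein Nop58 stood at 9.50 and 9.46 at day 3, against 8.48 and 8.12 at day 0 (1.18 ± 0.12). Nucleophosmin Npm1 rose by 1.10 ± 0.10 and the pseudouridylation proteins Nhp2 and Gar1 by 0.96 ± 0.11 and 0.94 ± 0.13, while Rrn3, which recruits RNA polymerase I, stood at -0.01 ± 0.07 without a call. Translation factors were higher in 11 of 26 cases and lower in 5, with Eif1a (1.56 ± 0.10) and the helicase Eif4a1 (1.11 ± 0.07) higher and the kinase Eef2k (-1.16 ± 0.09), which slows elongation, lower. Cytosolic tRNA synthetases were higher in 6 of 20 cases and lower in 3, with Gars highest at 0.67 ± 0.07.

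Amino acid supply genes were higher in 20 of 30 cases and lower in 5, with a median of 0.79. Psat1, an enzyme of serine synthesis, stood at 10.31 and 10.40 at day 3, against 8.01 and 7.74 at day 0 (2.48 ± 0.12). The cystine carrier Slc7a11 (2.45 ± 0.20), the glutamine carrier Slc38a1 (2.42 ± 0.13) and the basic amino acid carrier Slc7a7 (2.34 ± 0.10) rose, with a smaller rise in the other probe set of Slc38a1. Slc38a2 (0.13 ± 0.07) was not called and Slc38a4 fell by 1.11 ± 0.14.

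Folding and quality control genes of the endoplasmic reticulum were nearly all higher, 24 of 26 with 1 lower and a median of 1.10. The retrieval receptor Kdelr3 stood at 11.41 and 11.31 at day 3, against 8.82 and 8.39 at day 0 (2.75 ± 0.12). The oxidase Ero1a (2.37 ± 0.12), the degradation factor Edem1 (1.97 ± 0.12) and the chaperone cofactor Sdf2l1 (1.89 ± 0.10) rose. Hspa5, the main chaperone of this compartment, stood at 13.02 and 13.07 at day 3, against 11.79 and 11.76 at day 0 (1.27 ± 0.07, adjusted p = 9.64e-08). Hsp90b1, its heat shock protein 90, stood at 12.50 and 12.56 at day 3, against 11.27 and 11.20 at day 0 (1.29 ± 0.07, adjusted p = 4.24e-08). The pools of a day lay within 0.07 of each other for both chaperones. Herpud1 fell by 0.50 ± 0.06 and Dnajb9 stood at 0.22 ± 0.11 without a call.

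The promoters of Hspa5 and Hsp90b1 are shown because they hold the endoplasmic reticulum stress element, CCAAT followed after any 9 bases by CCACG, to which NF-Y and Atf6 bind. Each window is 250 bases before the start from RefSeq on GRCm38.p6, with the element or its reverse complement in capitals.
Hspa5 (chr2:34771840-34772089, plus strand): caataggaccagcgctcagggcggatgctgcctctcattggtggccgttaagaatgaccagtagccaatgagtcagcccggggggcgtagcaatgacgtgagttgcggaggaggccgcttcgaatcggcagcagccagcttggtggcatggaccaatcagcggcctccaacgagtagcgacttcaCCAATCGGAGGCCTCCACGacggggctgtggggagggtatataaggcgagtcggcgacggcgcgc
Hsp90b1 (chr10:86705445-86705694, minus strand): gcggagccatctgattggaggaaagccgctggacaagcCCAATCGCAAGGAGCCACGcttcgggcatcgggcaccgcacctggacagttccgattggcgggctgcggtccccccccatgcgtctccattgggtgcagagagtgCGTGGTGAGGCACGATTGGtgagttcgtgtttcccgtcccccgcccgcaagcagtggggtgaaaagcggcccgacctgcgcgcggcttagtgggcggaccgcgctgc
The Hspa5 window holds 1 match and the Hsp90b1 window 2. Over both strands the element was in 8 of 23 windows of the list (34.8%), against 0.113% of all windows. Its first part, the CCAAT box, was in 18 of 23 (78.3%), against 33.8%.

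Among protein breakdown genes of the atrophy programme more fell than rose, and most proteasome subunits were not called. Of the atrophy ligases, FoxO and autophagy genes 20 of 36 fell and 6 rose, with a median of -0.55. The muscle ligase adaptor Asb15 stood at 8.99 and 9.30 at day 3, against 11.82 and 11.80 at day 0 (-2.66 ± 0.17). Asb14 fell by 2.48 ± 0.15, Asb10 by 2.27 ± 0.12 and the atrophy ligase Fbxo32 by 1.02 ± 0.08, while Trim63, the other classical atrophy ligase, stood at -0.10 ± 0.09 without a call and the cathepsin Ctsl rose by 1.28 ± 0.09. Proteasome subunits were higher in 10 of 34 cases and lower in 4, or in 2 without the right pool of day 0 or the right pool of day 3. Psma7 was highest at 0.60 ± 0.10 and Psme4 lowest at -0.89 ± 0.08.

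Stress responses outside the endoplasmic reticulum were uneven. Heat shock genes were higher in 8 of 23 cases and lower in 4, with Hsp90aa1 (1.36 ± 0.11) higher and Dnajb5 (-1.06 ± 0.08) lower. Among metallothionein, heme and antioxidant genes 16 of 26 rose and 4 fell. Hmox1 stood at 12.64 and 12.62 at day 3, against 8.58 and 8.35 at day 0 (4.16 ± 0.09). Metallothioneins Mt2 (2.41 ± 0.09) and Mt1 (2.40 ± 0.08) and the ferritin light chain Ftl1 (1.60 ± 0.08) rose, the ferritin heavy chain Fth1 (0.09 ± 0.08) and catalase Cat (-0.37 ± 0.21) were not called, and the glutathione transferase Gsta4 fell by 1.23 ± 0.15. The metal response element TGCGCNC was in 3 of 28 windows of that list (10.7%), against 12.5% of all windows.

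Immediate early genes, which respond to signals within hours, were higher in 15 of 24 cases and lower in 5, or in 3 without the right pool of day 0 or the right pool of day 3. Fosl1 stood at 10.18 and 10.52 at day 3, against 7.76 and 7.77 at day 0 (2.58 ± 0.19). The stress factor Atf3 (1.78 ± 0.10) and Ier3 (1.66 ± 0.11) rose, Jun (-0.13 ± 0.10) and Dusp1 (-0.15 ± 0.08) were not called, and Nr4a1 fell. Clock genes were lower in 12 of 17 cases and higher in 0. The output factor Dbp stood at 9.12 and 9.24 at day 3, against 11.08 and 11.01 at day 0 (-1.87 ± 0.09). Bhlhe41 fell by 1.56 ± 0.09, Hlf by 1.40 ± 0.08, Nr1d2 by 1.29 ± 0.10 and Nr1d1 by 1.26 ± 0.08, and Clock (-0.14 ± 0.08) was not called. The labels give no time of day, and its part in this difference was not tested. The E-box CACGTG, the site of Clock and Arntl, was in 6 of 20 windows of the list (30.0%), against 6.02% of all.

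Day 3 was also set against its neighbours, days 1 and 5, which share the day 3 pools with the comparison above. Against day 1, 34.7% of genes were called, of which 4284 (21.5% of all) were higher at day 3 and 2636 (13.2%) lower. That balance turned with equal medians over the 19938 genes alone, which gave 2493 higher and 3973 lower. Against day 5, 11.2% were called, of which 946 (4.74%) were higher and 1279 (6.41%) were lower. These counts rest on few arrays, and without single pools they lay between 178 (without the right pool of day 3) and 604 higher and between 519 (without that same pool) and 1047 lower. Spindle genes were higher than at day 1 in 30 of 30 cases, with a median of 1.70, and against day 5 0 were higher and 0 lower. Interferon genes were lower than at day 1 in 19 of 21 cases and higher than at day 5 in 3. Collagen chains were higher than at day 1 in 19 of 20 cases and lower than at day 5 in 14. By these tests most listed division genes stood above day 1 and most listed interferon genes stood below it. Most listed collagens stood above day 1 and below day 5.

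Other groups differed from day 1, from day 5 or from both. Developmental sarcomere genes were higher than at day 1 in 9 of 15 cases and lower than at day 5 in 12, and for matricellular genes these counts were 20 and 16 of 27. Glycolysis and glycogen genes were lower than at day 1 in 22 of 32 cases and higher than at day 5 in 12. Fast sarcomere genes were lower than at day 1 in 17 of 24 cases, with 2 higher and 0 lower than at day 5. Genes of endoplasmic reticulum folding were lower than at day 1 in 15 of 26 cases and higher than at day 5 in 7. Immediate early genes were lower than at day 1 in 16 of 24 cases and higher than at day 5 in 6.

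The genes that differed most from day 1 were Sfrp2 (3.91 ± 0.16), Fcrls (2.95 ± 0.14), the matrix protein Cthrc1 (2.80 ± 0.09), Lrrc17 (2.76 ± 0.14) and Plk1 (2.72 ± 0.18) on the higher side. On the lower side were Acod1, the itaconate enzyme of macrophages (-2.88 ± 0.13), Ifit3b (-2.63 ± 0.18), Cxcl2 (-2.50 ± 0.28), Chil3 (-2.49 ± 0.37) and Saa2 (-3.03 ± 0.86), whose call was lost without the right pool of day 1 or either pool of day 3. Against day 5 the long noncoding RNA Mirt2 (1.95 ± 0.32), Il1f9 (1.85 ± 0.26), and the neutrophil genes S100a8 (1.87 ± 0.41), S100a9 (1.81 ± 0.41) and Cxcr2 (1.74 ± 0.35) were highest. The calls of these neutrophil genes were lost without the left muscles of day 3 or of day 5, where S100a8 differed by 1.53 and 1.69, S100a9 by 1.53 and 1.59 and Cxcr2 by 1.56 and 1.44, and that of S100a9 also without the right pool of day 3, at 2.08. Lowest against day 5 were Tecrl (-2.61 ± 0.21), embryonic myosin Myh3 (-2.43 ± 0.21), Lrrc15 (-2.12 ± 0.16), Zdbf2 (-2.12 ± 0.14) and Igf2 (-2.11 ± 0.09).

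Day 3 was set against the mean of days 1 and 5 as well, a test that does not show a difference from each of those days. Against that mean 15.4% of genes were called, of which 1766 (8.86%) were higher and 1295 (6.5%) were lower. Without the right pool of day 3 the counts were 210 and 187, and with only the arrays of the days compared they were 416 and 389. Of the 15 genes named on each side, 8 of the higher and 6 of the lower were called against day 1 and against day 5 separately. The acute-phase protein Saa3, which macrophages and fat make outside the liver, stood at 8.27 and 8.18 at day 1, 9.15 and 9.17 at day 3 and 7.88 and 7.65 at day 5 (1.17 ± 0.09, adjusted p = 2.11e-04). Pentraxin Ptx3, a secreted pattern recognition protein, stood at 8.40 and 8.30 at day 1, 9.52 and 9.62 at day 3 and 8.40 and 8.62 at day 5 (1.14 ± 0.07, adjusted p = 1.35e-04). Both lay higher in each day 3 pool than in any pool of days 1 and 5, which the rule for naming genes here required. The neuropeptide galanin, Gal (1.20 ± 0.16), Nxpe5 (1.10 ± 0.17), the elastase inhibitor Serpinb1a (0.99 ± 0.08), the scavenger receptors Cd163 (0.80 ± 0.12) and Stab1 (0.77 ± 0.06), and Aldh1a2, which makes retinoic acid (0.77 ± 0.08), were also higher. The other genes on this side were Ccn5, Pgap6, Mybl2, Kcnc4, Snai1, Dio3 and Il13ra2, between 0.79 ± 0.11 for Il13ra2 and 0.84 ± 0.08 for Ccn5. Il13ra2 lay under the guide of 7.4 on all 6 arrays of these days, so its value is one at low levels. Gal, Nxpe5, Serpinb1a, Stab1, Mybl2, Snai1 and Dio3 were not called against day 5.

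The genes furthest below the mean of days 1 and 5 were led by Ppargc1a, at 10.05 and 9.82 at day 1, 8.09 and 8.37 at day 3 and 9.20 and 8.64 at day 5 (-1.20 ± 0.15, adjusted p = 0.00123). Gem, a small GTPase that restrains calcium channels, stood at 9.77 and 9.68 at day 1, 8.15 and 8.19 at day 3 and 8.60 and 8.57 at day 5 (-0.98 ± 0.07), after 8.15 and 8.13 at day 0. At day 3 Gem did not differ from day 0 by the test (0.03 ± 0.08). The matrix protease Mmp3 (-0.98 ± 0.13), C7 (-1.09 ± 0.15), the fibre reductase Dhrs7c (-1.04 ± 0.11) and the secreted protein Dkk3 (-0.85 ± 0.10) were lower too. Mylk4 (-0.98 ± 0.16), Pdcd4 (-0.89 ± 0.18), Atp1b4 (-0.87 ± 0.18), Angptl7 (-0.87 ± 0.15) and Retnla (-0.86 ± 0.21) were lower with all arrays and lost the call without the right pool of day 3, and Atp1b4 also without the left pool of day 3 and Retnla without the right pool of day 5. Zim1, Sphk1, Sat1 and Sox9 completed the 15, with Sox9 at -0.79 ± 0.10 and Zim1 at -0.93 ± 0.11. Dhrs7c, Mylk4, Mmp3, Angptl7, Sphk1, Sat1 and Sox9 were not called against day 5, where Sphk1 differed by -0.07, and Pdcd4 and Atp1b4 were not called against day 1.

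**Figure D5:**
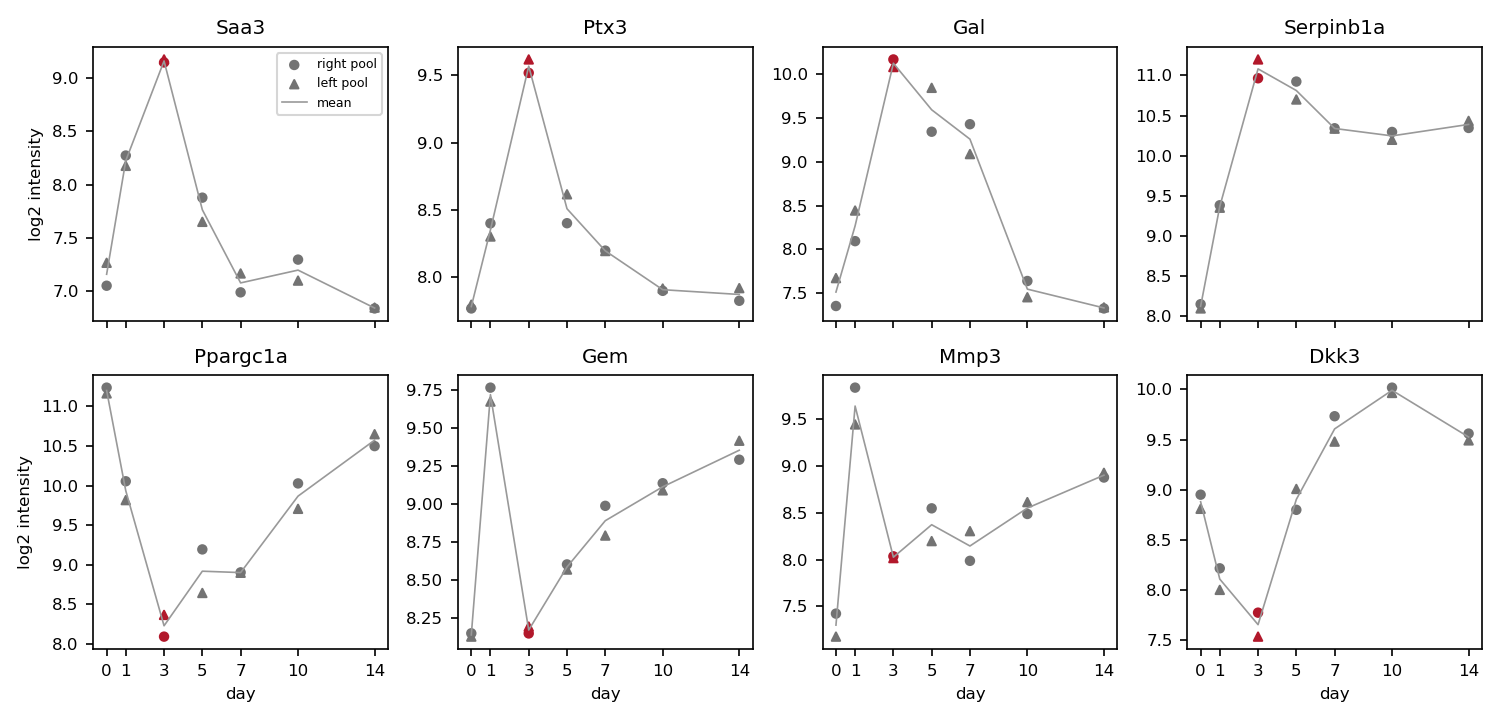
Log2 intensity (vertical axis, a different range in each panel) against the day of overload for 4 genes higher and 4 genes lower at day 3 than the mean of days 1 and 5. Circles are right pools, triangles are left pools, lines join the day means, and the pools of day 3 are in red. Saa3 reaches 9.15 and 9.17 at day 3, and Ppargc1a lies lowest there, at 8.09 and 8.37.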

How the data were processed

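RNA of 14 plantaris pools was read on Affymetrix Mouse Gene 1.0 ST arrays, of which 4 belong to days 3 and 0. The authors deposited 1 linear intensity per probe set, between 5.9 and 29501.5, made with Partek per the submitters' processing notes; its version and the method of summarising and normalizing are not given in the sources used here. One label states 100 ng of input RNA, another 250 ng. Array medians lay between 242.8 and 254.9. Precision is limited by how few arrays there are.

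Log2 was taken of these intensity values with no added normalization. Of 35556 probe sets, 21789 carry 1 gene symbol, 1621 several and 12146 are not listed in the annotation used. The 999 genes with several probe sets were read from the one with the highest mean, leaving 19938 genes, and 0 symbols needed an update. No column of per-sample values was left out. No coordinates of probe sets are given, because no source used here gives the array's build.

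A linear model with a mean for every day was fitted to all 14 arrays in limma 3.58.1 (R 4.3.3), with 7 residual degrees of freedom and 3.88 more from the variance prior. Contrasts set day 3 against day 0, day 1, day 5 and the mean of days 1 and 5, two-sided, with Benjamini-Hochberg adjustment over all genes and calls at an adjusted p under 0.05. On simulated data with known changes the fit called more genes at larger folds. Any working fit would do so, and this is a check of how the fit runs, not of the calls above. Genes were named by rule: the 20 furthest each way from day 0 whose pools do not overlap, up to 5 called and 2 uncalled members of each of 54 pathway and 16 marker lists, the 15 furthest each way from days 1 and 5, the 5 furthest each way from day 1 and from day 5, and a panel of 53 genes, of which 3 were not analysed here. The rule gave 502 genes, 17 of them among the dimmest (mean under 7.5) and 20 with several probe sets. The members, lists and tests were chosen with earlier results of these data known, and the gene pairs, the promoters printed with the chaperones and Ifit1 shown beside them, and the families in the closing section were chosen after their values were seen.

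Promoter windows came from a RefSeq table on GRCm38.p6. Right and left pools share only a side label. Across genes the right minus left difference at day 3 correlated with that of the other days between -0.36 and 0.31, so sides were not treated as pairs. Figures were drawn with matplotlib 3.10.9. Alternatives were other scalings, filters, variance priors, side as a block, an added intensity of 16, fewer arrays and each pool left out.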

Additional observations from a re-analysis of the deposited data

How the results depend on the processing

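Between day 3 and day 0 the genes called higher numbered 4085 to 4866 and those called lower 3702 to 6642 over all settings, so that no count moved by over 1.5 times; without single pools they lay between 4220 and 4616 higher and 3702 and 4281 lower. With side as a replicate block 4754 were higher and 4565 lower, and of the 502 named genes 500 kept their call or lack of one, Igf1 lost it and 1 gained it; Acta1, named in the text outside that rule, lost it too. Right minus left differences at day 3 did not run together with those of every other day, so the block is no paired analysis. No named gene called in the fit above or under the setting tried turned in sign, and 18 lost a call under at least 1 setting. Turns in sign of genes called in neither fit were not counted. The other comparisons moved more, and the cause was not tested. With equal medians over the genes alone, day 3 stood above day 1 in 2493 genes and below it in 3973, and above the mean of days 1 and 5 in 844. Calls made up of higher genes were then 38.6% against day 1, 36.4% against day 5 and 32.0% against that mean, against 61.9%, 42.5% and 57.7% as deposited. With only the arrays of the days compared, 561 genes were above day 5, and 416 above and 389 below the mean of days 1 and 5. Without the right or the left pool of day 3, 178 or 420 genes were above day 5 and 519 or 784 below it, and without the right or the left pool of day 5, 604 or 207 were above, and without that left pool 583 below. Above the mean of days 1 and 5 were 210 and 698 without the right or the left pool of day 3 and 1031 without the right pool of day 5, and below it 187 and 748 without the right or the left pool of day 3. List medians were counted as turned only where both values lay at least 0.05 from 0. With equal medians over the genes alone, that of titin-linked genes turned (-0.053). Without the left pool of day 0, those of complement genes (0.21), hepatocyte markers (0.66) and neutrophil markers (-0.06) turned. They did so with or without the right pool of day 1 left out as well. The median of neutrophil markers also turned without the left pool of day 3 (-0.12). Of 560 list counts recomputed without 1 pool, 41 moved by over 1.5 times, nearly all of them counts of 5 or fewer. A day then holds 1 pool, which is assumed to vary like the other days. Genes near the top of the arrays' range, such as Myh4 and Acta1, leave little room above day 0.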

Other observations

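Gene families grouped by symbol, 230 of them with at least 10 measured genes, held some groups that no list covers; they were picked after their values were seen and have no test. All 10 Hoxa genes, the homeobox factors that set position along the limb, were lower at day 3, with a median of -0.50. Hoxa13 stood at 8.14 and 8.30 at day 3, against 9.38 and 9.28 at day 0 (-1.11 ± 0.11), and Hoxa5 stood at 7.22 and 7.35 at day 3, against 8.18 and 7.94 at day 0 (-0.78 ± 0.09). Of the 10 Hoxd genes 3 were lower. Proteins of the mitochondrial ribosome, which translate the mitochondrion's own messages, were lower in 36 of 48 Mrpl and 20 of 29 Mrps genes and higher in 1 and 0. The mitochondrial import genes of the Timm family were lower in 11 of 14 cases and the coenzyme Q genes in 8 of 11. In the other direction 8 of 10 Srsf splicing factors and 14 of 20 Nup nuclear pore genes were higher, while 0 and 1 were lower.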
